A study of Homo sapiens with 4 samples.

Results

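ABCC1, ABCC3, ABCC4, ABCC5 and ABCC10 are 5 genes of the ABCC subfamily of ATP-binding cassette transporters, examined here for RNA bound by ADAR in K562 cells. A cluster, which is an interval of piled-up reads in a deposited peak list, was counted to a gene when its midpoint lay in the gene's RefSeq span on GRCh38 and on the gene's strand. By this rule the 5 genes held 694 of 534161 clusters in replicate 1, 272 of 155848 in replicate 2, and 10 of the 1717 peaks of the authors' reproducible list, which combines the replicates. The genes were chosen by their place in the ABCC subfamily and, for ABCC1, by its number of reproducible peaks, which comes from these same folds and p-values. Their counts and folds are therefore given as a description, with no test.

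The study mapped ADAR binding by enhanced crosslinking and immunoprecipitation (eCLIP), in which ultraviolet light (254 nm, 400 mJ/cm2) joins proteins to the RNA they touch and the protein is then pulled down with its RNA. The immunoprecipitated (IP) group held 2 libraries, for which an anti-ADAR1 antibody was used, and the input group held 2 libraries that skipped the pulldown. Each group is numbered 1 and 2. All came from K562, an established human chronic myeloid leukaemia line, with no treatment. The labels do not say whether the replicates came from separate cultures, so their spread may be technical. Of 9 erythroid marker genes 9 held a cluster, and of 7 hepatocyte markers, for the other cell line named in the protocols, 0 did. In replicate 2 taken by itself, 8 of the 9 did. Holding a cluster was common, since 13096 protein-coding genes held one.

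ADAR is an RNA-editing enzyme that turns adenosines of double-stranded RNA into inosines, and much of its binding in human cells lies in non-coding parts of transcripts that fold back on themselves. ABCC proteins use ATP to pump organic anions out of cells, and several are known as multidrug resistance proteins. ABCC1 exports glutathione conjugates, leukotriene C4 and many anticancer drugs. ABCC3 exports organic anions such as bile salts and glucuronides, ABCC4 and ABCC5 export cyclic nucleotides and nucleotide analogues, and ABCC10 is a further drug exporter.

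Each cluster carries the authors' log2 fold of IP over input and a −log10 p. Together these can fix how many reads lay under it, if the most frequent fold stands for 3 IP reads over 1 input read. For every enriched cluster below the cap on p, of which there were 7298 in replicate 1 and 19869 in replicate 2, exactly 1 pair of whole numbers of IP and input reads gave both deposited values. These are called recovered reads. Many clusters that were not enriched gave none: in ABCC1, reads were recovered for 107 of 280 clusters in replicate 1 and 135 of 148 in replicate 2. The ratio of IP to input depth was 3.33 in replicate 1 and 0.553 in replicate 2, so a given fold stands for more IP reads in replicate 1. A recovered input of 1 may stand for no input read at all, and a read that spans touching clusters may be counted in each. Enriched clusters are those whose log2 fold and −log10 p both reached 3.

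The reproducible ADAR peaks of ABCC1 lay at 3 narrow sites in the middle of the gene, while replicate 2 alone had enriched clusters over more of it. ABCC1 spans 15949143 to 16143053 on the plus strand of chromosome 16, a length of 194 kb. Its 9 reproducible peaks touched each other in groups and formed sites of 75, 71 and 86 bases, centred 73.9, 80.0 and 123 kb from the gene start. No reproducible peak lay elsewhere in the gene. The annotation used here gives gene spans without exons, so introns, exons and untranslated regions were not assigned.

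The strongest site was chr16:16023013-16023087. In replicate 1 its 5 clusters had 151, 155, 233, 217 and 204 IP reads, against 2, 2, 2, 1 and 2 input reads. In replicate 2, 3 clusters between 16023015 and 16023114 had 97, 132 and 121 IP reads, against 1, 1 and 2 input reads. In both IP libraries at least 97 reads thus stood on each enriched cluster of the site, where the matching input gave 1 or 2. The log2 folds of these clusters were 4.50, 4.54, 5.13, 6.03 and 4.94 in replicate 1, and 7.45, 7.90 and 6.77 in replicate 2. Reads peaked over 16023040 to 16023050 in replicate 1, which lies inside the highest cluster of replicate 2, from 16023036 to 16023060.

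The site at chr16:16029081-16029151 lay 80.0 kb from the gene start and was weaker. Replicate 1 gave 127, 127 and 124 IP reads, against 2 input reads in each of its 3 clusters, with log2 folds of 4.25, 4.25 and 4.22. Replicate 2 gave 44 and 34 IP reads, against 1 input read in each of 2 clusters, with log2 folds of 6.31 and 5.94. Both libraries again placed the clusters on nearly the same bases.

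The site at chr16:16072234-16072319, 123 kb from the gene start, had 89, 95 and 77 IP reads, against 2 input reads in each of 3 clusters of replicate 1. Replicate 2 had 34, 99 and 66 IP reads there, against 2, 2 and 1 input reads, from a cluster start at 16072214. The log2 folds were 3.74, 3.84 and 3.53 in replicate 1, close above the threshold, and 4.94, 6.48 and 6.90 in replicate 2. The cluster at the left edge, which was enriched in replicate 2, had a neighbour in replicate 1 at 16072214 to 16072231 with 35 IP reads against 1 input read. That neighbour had a log2 fold of 3.40 and a −log10 p of 2.88, just short of a call.

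**Figure D1:**
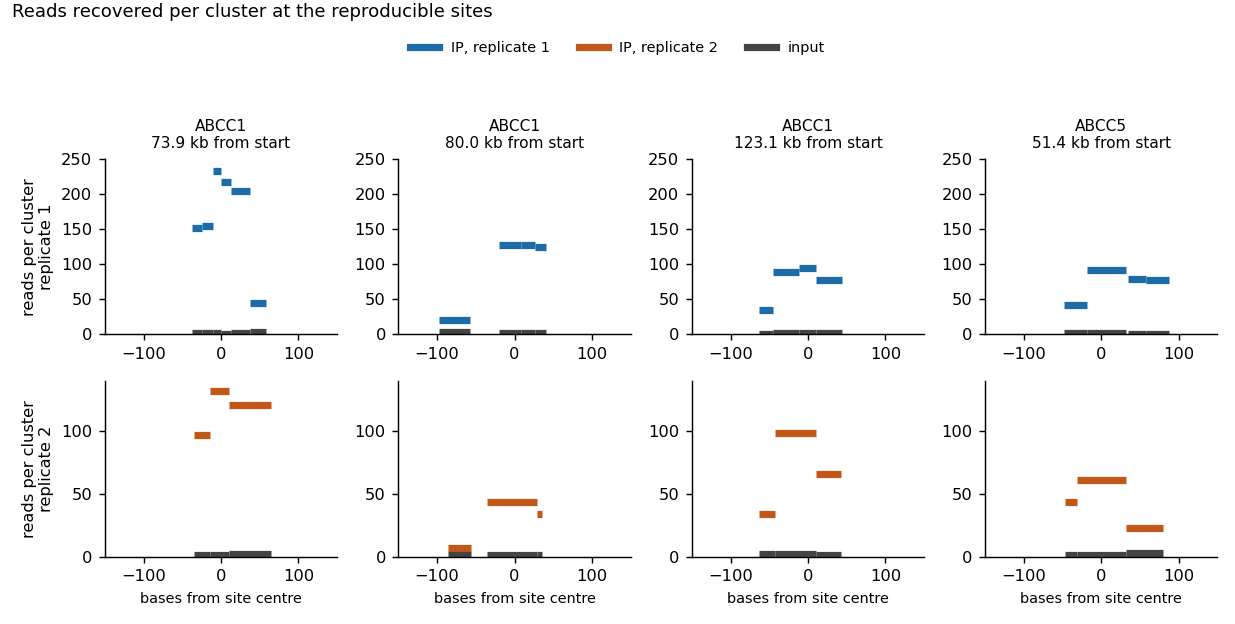
Recovered reads of each cluster (vertical axis, IP in colour and input in dark grey) against the distance in bases from the centre of the 4 reproducible sites of ABCC1 and ABCC5, in the direction of the gene, with replicate 1 above replicate 2. At the 3 ABCC1 sites the IP lines of enriched clusters stand between 34 and 233 reads and their input lines at 1 or 2. Neighbouring clusters that were not enriched are drawn too where their reads were recovered, with at most 44 IP reads.

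ABCC5 had 1 reproducible peak. The gene spans 183919934 to 184017884 on the minus strand of chromosome 3, and the peak lay at chr3:183966419-183966482, 51.4 kb from its start. Around it, the 3 enriched clusters of replicate 1, between 183966364 and 183966468, had 78, 79 and 92 IP reads, against 1, 1 and 2 input reads. The 3 of replicate 2, between 183966371 and 183966497, had 23, 61 and 44 IP reads, against 3, 1 and 1 input reads. Their log2 folds were 4.55, 4.57 and 3.79 in replicate 1, and 3.79, 6.78 and 6.31 in replicate 2. In both replicates the cluster that starts with the reproducible peak, at 183966419, had the most IP reads. The fold of replicate 1 was higher beside it, at 183966394 to 183966415, where 1 input read stood in place of 2, and the intervals of both folds, 2.05 to 9.89 there and 1.895 to 6.86 on the peak, overlapped.

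The fold of a reproducible peak could be split back into the folds of the replicates. Where such a peak has the bounds of a replicate's own cluster, taking its fold as the mean of both replicates left a remainder on the whole-read steps of the other library in 783 of 786 cases for replicate 1 clusters and in 937 of 937 for replicate 2 clusters. All 10 peaks in the ABCC genes have such bounds. The highest was chr16:16023051-16023063, with a deposited log2 fold of 6.89, ranked 15 of 1717, made of 6.03 in replicate 1 and 7.75 in replicate 2. The lowest was chr16:16029145-16029151 at 5.07, ranked 540, made of 4.20 and 5.94. For the ABCC5 peak, 5.30 was made of 3.82 in replicate 1, where 94 IP reads stood against 2 input reads, and 6.78 in replicate 2, where 61 stood against 1.

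Replicate 2 had the higher fold in 10 of 10 peaks, by 1.72 to 3.37 on the log2 scale with a median of 2.73. The 10 peaks form 4 sites, and touching peaks may share reads, so they are not separate cases. Over all clusters paired by overlap between the replicates, replicate 2 was higher in 80.7%. The counts behind the folds of the 10 peaks were small on the input side. Of the 10 peaks, 5 had recovered reads in both replicates, and in 5 of these 5 the exact 95% (Clopper-Pearson) intervals of the replicates overlapped. At chr16:16072288-16072319, for instance, the interval was 4.37 to 12.2 around 6.90 in replicate 2 and 1.63 to 6.60 around 3.53 in replicate 1. These intervals cover counting error alone and were wide at this depth. Their overlap in those 5 peaks is not a test of the difference between the replicates, which was not tested.

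**Figure D2:**
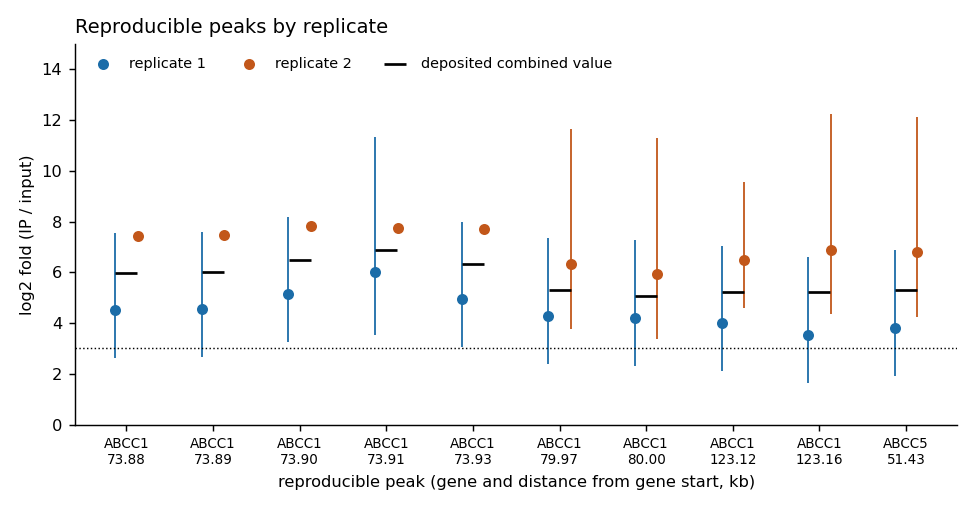
Log2 fold of IP over input of the 10 reproducible peaks, by gene and distance from the gene start in kb, in replicate 1 and replicate 2 (points), with the deposited combined value (dash) and exact 95% intervals from the recovered reads (lines, left out for the 5 replicate 2 values whose reads were not recovered). The dotted line is a log2 fold of 3. Replicate 2 stands above replicate 1 by 1.72 to 3.37 in each peak, and where both lines are drawn they overlap.

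The replicates differed in how much of ABCC1 was called. Over the whole gene, with the reproducible sites included, replicate 1 had 14 enriched clusters among 280 (5.00%, exact 95% interval 2.76% to 8.25%), where 1.39% of all its clusters were enriched. Replicate 2 had 37 among 148 (25.0%, 18.3% to 32.8%), where 12.8% of all its clusters were enriched. ABCC1 was chosen for its peaks, so nothing is read from its standing above these shares. Among 545 protein-coding genes with at least 50 clusters in each replicate, 36 had a higher enriched share than ABCC1 in replicate 1 and 53 in replicate 2. The median shares of those genes were 1.02% and 14.2%.

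Of the 14 enriched clusters of replicate 1, 11 overlapped a reproducible peak. The other 3 lay 86.7, 86.9 and 126 kb from the gene start, with log2 folds of 3.46, 3.91 and 3.59 and 73, 50 and 40 IP reads against 2, 1 and 1 input reads. Enriched clusters of replicate 2 overlapped each of them, with log2 folds of 4.50, 5.02 and 4.44. These places were thus enriched in both replicates without being in the reproducible list.

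Replicate 2 had 27 separate enriched sites in ABCC1, from 3.8 to 140 kb, and replicate 1 had 6, from 73.9 to 126 kb. Among those called in replicate 2 alone, the highest fold was at chr16:15952888-15952960, near the gene start, with 22 IP reads against 1 input read and a log2 fold of 5.31. The overlapping cluster of replicate 1 had 19 IP reads against 2 input reads and a log2 fold of 1.51. At chr16:15984824-15984895 replicate 2 had 42 IP reads against 3 input reads, a log2 fold of 4.66, while replicate 1 had 16 against 2, a log2 fold of 1.27. In replicate 1 the exact 95% intervals of these folds, −0.54 to 4.66 and −0.82 to 4.43, included no enrichment.

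In all, 11 of the 37 enriched clusters of replicate 2 in ABCC1 were overlapped by an enriched cluster of replicate 1. This share of 29.7%, against 14.0% over all clusters, is not read as a result, since ABCC1 was chosen for its peaks. The other 26 were not overlapped by an enriched cluster. For 4 of these 26, replicate 1 had no cluster, so that 89.2% of the 37 met some cluster of replicate 1, close to the 88.4% over all clusters. For the other 22, the overlapping cluster of replicate 1 had a log2 fold between −0.73 and 2.85, with a median of 1.42, and 19 of 22 were above 0. The fewest IP reads that gave a call at 1 input read were 37 in replicate 1 and 9 in replicate 2, over all clusters. The part of this difference in the unequal calls of ABCC1 was not tested.

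ABCC1 was also split along its length into 5 equal segments. The last segment held 40 clusters in replicate 1 and 20 in replicate 2, of which 0 and 0 were enriched. The first segment held 73 and 35, with 0 and 8 enriched. Over all clusters, 1.39% and 12.8% were enriched. At those shares a segment with so few clusters may hold none, so the counts of 0 are not read as a result. The 3 segments between the first and the last had 5, 5 and 4 enriched clusters in replicate 1, and 9, 10 and 10 in replicate 2. Enriched clusters of both replicates thus shared the middle of the gene, and those of replicate 2 reached into its start as well.

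**Figure D3:**
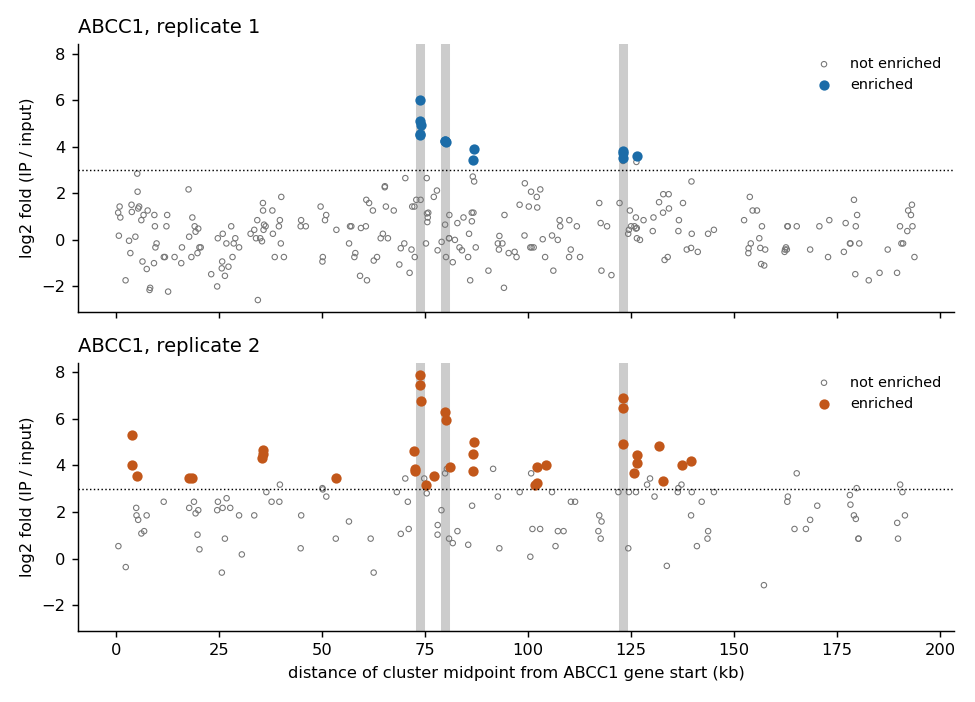
Log2 fold of IP over input of every ABCC1 cluster against the distance of its midpoint from the gene start in kb, for replicate 1 (280 clusters) and replicate 2 (148 clusters), with enriched clusters filled. Grey bands mark the 3 reproducible sites at 73.9, 80.0 and 123 kb and the dotted line a log2 fold of 3. The highest clusters of both replicates fall on the band at 73.9 kb. In the last of 5 equal segments of the gene, none of 40 and 20 clusters is enriched, where 1.39% and 12.8% of all clusters are.

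Calls near the threshold rested on few reads. In ABCC1 the weakest call by p in replicate 2 was chr16:16050780-16050831, with 10 IP reads against 2 input reads and a −log10 p of 3.00. The nearest clusters left out by p were chr16:16040661-16040740 and chr16:16029456-16029493, each with 8 against 1 and a −log10 p of 2.80, although their log2 fold was 3.85. Clusters of ABCC4 in replicate 2 had the same reads on either side of the threshold. In replicate 1 the weakest call was chr16:16075492-16075539, with 40 against 1 and a −log10 p of 3.25.

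ABCC4, the longest of the 5 genes at 282 kb (chromosome 13, 95019835 to 95301451, minus strand), held many clusters but few enriched ones and no reproducible peak. Replicate 1 had 2 enriched among 312 (0.641%, 0.0777% to 2.30%) and replicate 2 had 9 among 94 (9.57%, 4.47% to 17.4%). Both shares had intervals that include those of all clusters. Its highest log2 folds, 3.35 in replicate 1 and 4.44 in replicate 2, were below those of ABCC1, 6.03 and 7.90. The 4.44 belonged to chr13:95151374-95151403, 150 kb from the gene start, with 12 IP reads against 1 input read, where replicate 1 had no cluster.

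Both enriched clusters of ABCC4 in replicate 1 were also enriched in replicate 2. At chr13:95282930-95283019, 18.5 kb from the gene start, replicate 1 had 68 IP reads against 2 input reads, and the overlapping cluster of replicate 2 had 32 against 3, with log2 folds of 3.35 and 4.27. At chr13:95233102-95233169 both lists gave the same bounds, with 56 against 2 reads in replicate 1 and 9 against 1 in replicate 2, and log2 folds of 3.07 and 4.02. Neither place is in the reproducible list. At 95253967 to 95254055, where replicate 2 again had 32 against 3 reads, replicate 1 had 32 against 1 and a log2 fold of 3.27, without reaching the p threshold.

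ABCC5, at 98.0 kb, had 3 enriched clusters among 75 in replicate 1 (4.0%, 0.833% to 11.2%) and 5 among 22 in replicate 2 (22.7%, 7.82% to 45.4%). These intervals also include the 1.39% and 12.8% of all clusters. Outside the site of the reproducible peak, replicate 2 had 2 enriched clusters. One, at chr3:183967251-183967376, lay 50.6 kb from the gene start, with 16 IP reads against 1 input read and a log2 fold of 4.85. The other, at chr3:183997861-183997968, had 10 against 1 and a log2 fold of 4.18. Replicate 1 had 10 against 1 and 19 against 2 reads there, with log2 folds of 1.59 and 1.51.

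ABCC10 is a short gene of 24.5 kb (chromosome 6, 43427541 to 43451994, plus strand). It had 27 clusters in replicate 1 and 8 in replicate 2, of which 0 and 0 were enriched. Its highest cluster in replicate 1 was chr6:43439405-43439475, with 31 IP reads against 1 input read, a log2 fold of 3.22 and a −log10 p of 2.30. The cluster of replicate 2 at 43439407 to 43439459 had 4 against 1 and a log2 fold of 2.85. The interval of that fold, −0.48 to 8.48, includes no enrichment. Replicate 2 had its own highest cluster at 43440222 to 43440277, with 5 against 1 and a log2 fold of 3.18, and none of these clusters passed the p threshold.

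ABCC3 held 0 clusters in either replicate over its 57.4 kb (chromosome 17, 50634881 to 50692253). The lists hold called clusters alone, so how many reads fell on ABCC3 is unknown. No cluster of the other 4 genes lay on the opposite strand. No enriched cluster of theirs fell in the span of another annotated gene that overlaps them, such as ABCC5-AS1 or the microRNA gene MIR6780B inside ABCC10.

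**Figure D4:**
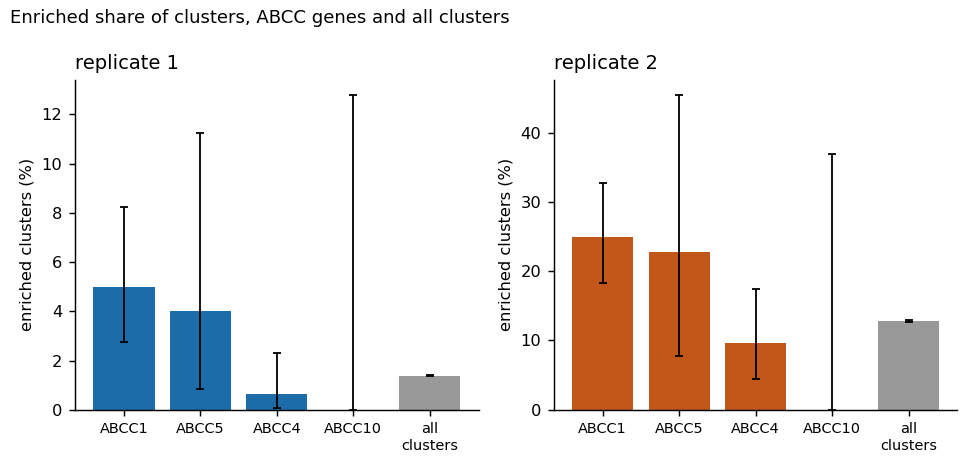
Percentage of clusters called enriched in ABCC1, ABCC5, ABCC4 and ABCC10 (coloured bars) and in all clusters (grey bar) in replicate 1 (left) and replicate 2 (right), with exact 95% intervals that cover counting error and treat clusters as independent. ABCC1 reaches 5.00% and 25.0%, against 1.39% and 12.8% of all clusters. ABCC10 has none among 27 and 8 clusters, and its intervals include the shares of all clusters.

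By gene, 3 of the 4 ABCC genes with a cluster had an enriched one in replicate 1, where 15.8% of protein-coding genes with a cluster did, and 3 of 4 in replicate 2, against 43.6%. A reproducible peak lay in 2 of the 4, against 3.81% of protein-coding genes with a cluster. These counts were known when the genes were chosen. The gene shares also pool genes with any number of clusters, while ABCC1, ABCC4 and ABCC5 held 280, 312 and 75 in replicate 1. Without ABCC1, 1.21% of the clusters of the ABCC genes were enriched in replicate 1 and 11.3% in replicate 2. Those shares lay near the 1.39% and 12.8% of all clusters, so the counts by gene are not read as a result. ABCC1, with 9 peaks, was exceeded by 14 of the 499 protein-coding genes that had any and equalled by 2. Its highest peak was exceeded in 7 genes.

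The replicates were then set side by side over the ABCC genes. Enriched clusters of replicate 1 were overlapped by enriched clusters of replicate 2 in 19 of 19 cases (exact 95% interval 82.4% to 100%), against 41.9% over all clusters. In the other direction this held for 15 of 51 (29.4%, 17.5% to 43.8%), against 14.0% over all clusters. ABCC1, ABCC4 and ABCC5 gave 14 of 14, 2 of 2 and 3 of 3 in the first direction. ABCC1 was chosen for its reproducible peaks, so this agreement was partly fixed by the choice and is not read as a result. Clusters that touch share reads and are not independent, and the 19 lie at 10 separate sites, so the intervals are too narrow. Of these 19 clusters 12 overlapped a reproducible peak (63.2%, 38.4% to 83.7%), and 11 of the 12 were in ABCC1. Among all 3103 enriched clusters of replicate 1 with an enriched overlap in replicate 2, the share was 45.4%. Because ABCC1 was chosen for these very peaks, the higher share is not read as a result.

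Pairing each cluster with its best overlap in the other replicate gave 159 pairs in the ABCC genes. The replicate 2 fold was higher in 147 of them (92.5%), with a median difference of 1.66 on the log2 scale, against 80.7% and 1.36 over all 87894 pairs. Across the 159 pairs, Pearson's r was 0.72 and Spearman's rho 0.64, against 0.52 and 0.48 over all pairs. Within ABCC1 the values were 0.77 and 0.68 over 98 pairs, and within ABCC4 0.56 and 0.51 over 49. These correlations are across clusters that share 2 pairs of libraries, and they are descriptions. ABCC1, chosen for its reproducible peaks, gave 98 of the 159 pairs. Both replicates were enriched in 14 of the 159 pairs, replicate 2 alone in 29 and replicate 1 alone in 0, against 2145, 13233 and 1244 of all 87894 pairs.

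**Figure D5:**
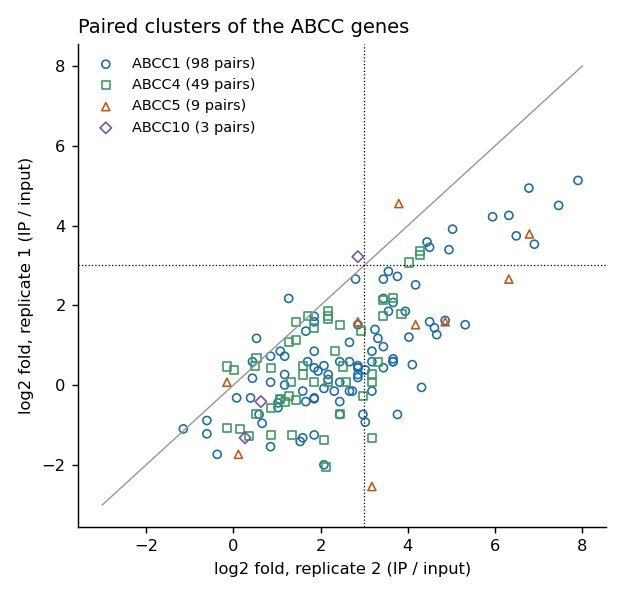
Log2 fold in replicate 1 (vertical) against log2 fold in replicate 2 (horizontal) for the 159 paired clusters of the ABCC genes, by gene. The line of equal values is drawn, with dotted lines at log2 folds of 3. Most points, 147, lie below the line of equal values, and the highest in both replicates belong to ABCC1.

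Genes whose pattern was most like that of ABCC1 were found by the distance over 5 counts, each as log2 of the count plus 1: clusters and enriched clusters in each replicate, and reproducible peaks. Among 13095 other protein-coding genes, those nearest to it included KMT2E, with 257 and 116 clusters, 14 and 31 enriched clusters in replicates 1 and 2, and 10 reproducible peaks (distance 0.47). UBE2K, a ubiquitin-conjugating enzyme, RCOR1, a corepressor, and ARID4B were also among them, at distances of 0.69, 0.71 and 0.75. The highest fold in the reproducible list was 6.89 for ABCC1, while KMT2E, UBE2K, RCOR1 and ARID4B reached 5.09, 5.09, 5.97 and 5.46.

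The other ABC transporter genes that were examined held no reproducible peak, where 3.81% of protein-coding genes with a cluster did. At that share so small a set may hold none, so this is not read as a result. Of 6 other ABCC genes 1 held a cluster, ABCC6, with a single one in replicate 1 that was not enriched. Of 36 genes of the other ABC subfamilies 23 held a cluster. In replicate 1, 2 of their 586 clusters were enriched (0.341%, against 1.39% of all clusters), and in replicate 2, 12 of 109 (11.0%, against 12.8%). ABCB10, a mitochondrial inner membrane transporter needed in erythroid cells, led them with 3 enriched clusters in replicate 2 and 0 in replicate 1.

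Among 27 genes of glutathione synthesis, transfer and cystine supply, whose product is a substrate or partner of ABCC1, 20 held a cluster and 1 of them held reproducible peaks, where 3.81% of protein-coding genes with a cluster did. This was SLC3A2, the heavy chain shared by several amino acid transporters, with 3 peaks up to a log2 fold of 5.56. It had 5 enriched clusters of 50 in replicate 1 and 18 of 39 in replicate 2, so it held 5 of the 5 enriched clusters of the list in replicate 1 and 18 of the 24 in replicate 2. Over the list, 1.06% of replicate 1 clusters and 16.9% of replicate 2 clusters were enriched, near the 1.39% and 12.8% of all clusters. SLC7A11, which pairs with SLC3A2 to import cystine, had 120 and 18 clusters, of which 0 and 0 were enriched.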

How the data were processed

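The authors deposited 3 peak lists from 2 IP and 2 input eCLIP libraries. The submitters' processing notes name cutadapt 1.9 and STAR 2.4.0i. No source used here names the peak caller. On chromosome 17 clusters end at up to 83224967, a position that GRCh38 has and the build before it lacks. The deposited −log10 p-values, limited to 400, and the deposited log2 folds set IP over the input of the same number. Total reads per library are unknown.

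Positions are given from 1. Strands came from RefSeq's promoter table (GRCh38.p14) for ABCC4, ABCC5 and ABCC10 and from the clusters for ABCC1. Reads were recovered with scipy 1.17.1 from the most frequent fold, set to 3 IP reads over 1 input read, by searching multiples of the reduced ratio (denominators up to 200) for the deposited p within 0.02, using a two-sided binomial test below 5 reads and a Yates-corrected chi-square test otherwise. This was tested on simulated data. Overlaps needed 1 base on the same strand, and pairs were mutual best overlaps. No fit across samples was run, because the members were chosen from these folds.

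The members and gene lists were chosen with earlier results of these data known. Each member was described with all its reproducible peaks and the highest enriched cluster of each replicate, 4 of the 5 genes nearest to ABCC1 were named (the other is not reported here), and from each list the genes with a reproducible peak or the most enriched clusters. Other genes and clusters (SLC7A11 and clusters near the threshold or outside the reproducible list) were named after their values were seen. Sequences under the peaks were not used here.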

Additional observations from a re-analysis of the deposited data

How the results depend on the processing

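Gene assignment by any overlap left the 19 and 51 enriched clusters and the 10 reproducible peaks as they were, and counting either strand left the 19 and 51. The 19 enriched clusters of replicate 1 fell to 10 at a log2 fold of 4, and the 51 of replicate 2 to 31. Minimums of recovered input reads were chosen after seeing the data: with at least 2, replicate 2 kept 33 calls, and with at least 5 both replicates kept 0, since every enriched cluster of the ABCC genes had 1 to 4 input reads. Over the whole lists 694 and 2882 enriched clusters had 5 or more, which is 9.51% and 14.5% of those with recovered reads. Merging touching peaks left 4 reproducible sites. All reproducible peaks overlapped an enriched cluster of each replicate, so leaving out either replicate gave 10 and 10. Because the list combines the replicates, this outcome was built in and is no separate check of the peaks. Overlap of replicate 1 calls was 80.0% at a log2 fold of 4. That of replicate 2 calls was 16.1% at a log2 fold of 4 and 88.2% when any cluster of replicate 1 counted. The median paired difference was 1.47 with denominators of at least 5 (11 pairs) and 1.71 over the 152 pairs with a wider overlap. No paired analysis was possible because no result here comes from a test between groups, and each deposited fold is already the difference of IP and input of the same number. Input depth limits every fold here.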

Other observations

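The reproducible list can be read back into its replicates more fully than its 2 values per peak first show. Its −log10 p was never above that of the replicate cluster with the same bounds, in 786 of 786 and 937 of 937 cases. Where it was lower, the remainder of the fold and the listed p together gave 1 pair of whole reads in the other replicate in 135 of 135 and 865 of 865 cases. The list thus holds the mean log2 fold and the smaller −log10 p of the replicates for those intervals. For the ABCC1 site at 73.9 kb the mean gives ratios that reduce to 95, 97, 124, 119 and 116 IP reads per input read in replicate 2. These are for the 5 intervals drawn from replicate 1.

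Of all enriched clusters with recovered reads, 47.0% in replicate 1 and 31.0% in replicate 2 had 1 input read. In ABCC1 this was 3 of 14 and 12 of 37.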
